A study of Mus musculus with 55 samples.

Results

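Mouse epiblast stem cells (EpiSCs) of the WT line were compared after 24h of Wnt and Fgf stimulation and before it. EpiSCs are derived from the epiblast of the post-implantation embryo and self-renew in a primed pluripotent state. All genes of the cell-line table were the members, without its 8 spike-in rows: 15807 genes, in 4 of the 55 samples of the series. The WT 24h group, with 2 libraries, came from cells taken out of IWP2 and given 3 µM Chiron and 120 ng/mL Fgf8. Chiron is CHIR99021, an inhibitor of the kinase GSK3. The WT 0h group, with 2 libraries, came from cells kept in 2 µM IWP2, which blocks the secretion of Wnt ligands, with 20 ng/mL Activin A and 12 ng/mL Fgf-basic. Both groups stemmed from E6.0 epiblast explants that grew on mouse embryonic fibroblast feeders and then on fibronectin without feeders. No group was kept untreated for 24h, so the effects of Chiron, of Fgf8, of IWP2 withdrawal and of time in culture cannot be told apart. The labels do not say whether Activin A and Fgf-basic stayed in the medium during the 24h, so a loss of either cannot be told apart from these. The labels do not say whether replicates were separate cultures, and p-values then measure only the spread between these libraries, which may be technical. Cells labelled Null, whose genotype the labels of these libraries do not spell out, got the same treatment and had 2 libraries at each time.

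Wnt ligands stabilise β-catenin by holding back GSK3, and a GSK3 inhibitor does the same without a ligand. Fgf signals run through receptor tyrosine kinases and the MAP kinase cascade. In the gastrulating embryo both pathways act on the primitive streak, where epiblast cells leave an epithelium, migrate over a fibronectin-rich matrix and form mesoderm. That passage is known for changes in cell adhesion and in guidance receptors, and pluripotent cells that leave the primed state are known for changes in de novo DNA methyltransferases and in metabolism.

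RNA was measured by CEL-seq, which counts the 3′ ends of transcripts. The 24h libraries held 2914870 and 1586583 counts, against 1791666 and 1693729 counts at 0h, and 9703 genes passed the filter on low counts and were tested. A floor of 3 counts in 1 of the 4 libraries was 1.03 to 1.89 CPM, where CPM is the usual unit of counts per scaled library. A gene was called when its adjusted p from edgeR's quasi-likelihood test, over all tested genes, was below 0.05, and "rose" or "fell" is used of called genes only. Differences are log2 values of 24h minus 0h with their standard error, and 2 libraries stand behind each group. Symbols are those of the table, and positions are RefSeq's on GRCm38.p6, the build also named mm10.

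The stimulation markers moved strongly. T, the Brachyury factor of the streak at chr17:8434423-8442496, had 523 and 413 CPM at 24h, against 51.4 and 54.1 CPM at 0h. Nkd1, a Wnt feedback inhibitor at chr8:88521342-88594887, had 832 and 799 CPM at 24h, against 14.5 and 17.1 CPM at 0h. Mixl1, a homeobox factor of nascent mesendoderm at chr1:180693043-180697034, had 336 and 251 CPM at 24h, against 11.8 and 14.2 CPM at 0h. All 3 were higher in both 24h libraries, with log2 differences of 3.16 ± 0.15 in T, 5.69 ± 0.15 in Nkd1 and 4.50 ± 0.19 in Mixl1. Utf1, a chromatin-associated factor of undifferentiated cells at chr7:139943856-139945112, had 1.39 and 3.19 CPM at 24h, against 109 and 88.2 CPM at 0h, a log2 difference of -5.56 ± 0.29. On a list of 10 primed epiblast markers, 8 were tested, 7 of them fell and Tdgf1 rose. Pou5f1, which encodes the pluripotency factor Oct4, had 58.1 and 54.2 CPM at 24h, against 204 and 197 CPM at 0h. L1td1, an RNA-binding protein of pluripotent cells, had 11.1 and 12.1 CPM at 24h, against 199.6 and 181 CPM at 0h. The other 2 markers, Nanog and Otx2, were under the filter: Nanog had 0 counts at 24h, against 1 count at 0h, and Otx2 had 3 and 3 counts at 24h, against 3 and 8 counts at 0h. The 0h cells thus held RNA of the pluripotency genes Pou5f1, L1td1 and Utf1, while Nanog and Otx2 were under the filter. Of 10 naive pluripotency markers, 8 were under the filter, 2 were tested and 1 of these, Klf5, rose. Whether the 0h cells were in a primed rather than a naive state was not tested.

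Over all 9703 tested genes, 795 rose (8.19%) and 837 fell (8.63%), together 16.8%. At a log2 size of 1 or more, 379 rose (3.91%) and 396 fell (4.08%), and 857 of the called genes (52.5%) lay below that size. The number that rose was 520 without WT 0h replicate 2, and the number that fell was 475 without WT 24h replicate 1 and 500 without WT 0h replicate 1. With DESeq2, 458 rose and 386 fell. In all 9 alternatives together, 325 of the genes that rose and 293 of those that fell were called, and no called gene changed its sign in any of them. A called gene named below was called in all 9 unless an adjusted p of an alternative, the highest of the 9, stands beside it. Among the 379 genes with the larger rises, 24h replicate 1 was above 24h replicate 2 in 69.1%, against 50.1% over all tested genes. Both 24h libraries lay above both 0h libraries in 26.8% of all tested genes and below both in 27.1%. Of the called genes, only 5 had overlapping groups. Most genes named for a rise or fall were chosen with libraries that do not overlap, so their separation, where given, adds no support to a call.

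The gene classes differed in the share of their members called. Adhesion, matrix and cytoskeleton lists together had 356 tested members, of which 16% rose and 21.6% fell. Receptor, ligand and channel lists had 258 tested members, of which 15.9% rose and 17.8% fell. Both stood at about 2 times the background of 16.8% called, with 37.6% of the adhesion class and 33.7% of the receptor class. Metabolism, with 664 tested members, had 21.5% called, and chromatin, with 328 tested members, had 12.8% called, below the background. The median size of the difference, whatever its sign, was 0.52 in adhesion genes and 0.53 in receptor genes, against 0.28 in metabolic genes, 0.24 in chromatin genes and 0.27 over all tested genes. These shares are descriptions, since the lists were not tested as sets. The lists were also written with earlier results of these data known, which may have raised their shares above the background. Median differences of lists can be read against the median over all tested genes, -0.01. The shares of each list given below can be read against the 8.19% that rose and the 8.63% that fell over all tested genes.

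**Figure D1:**
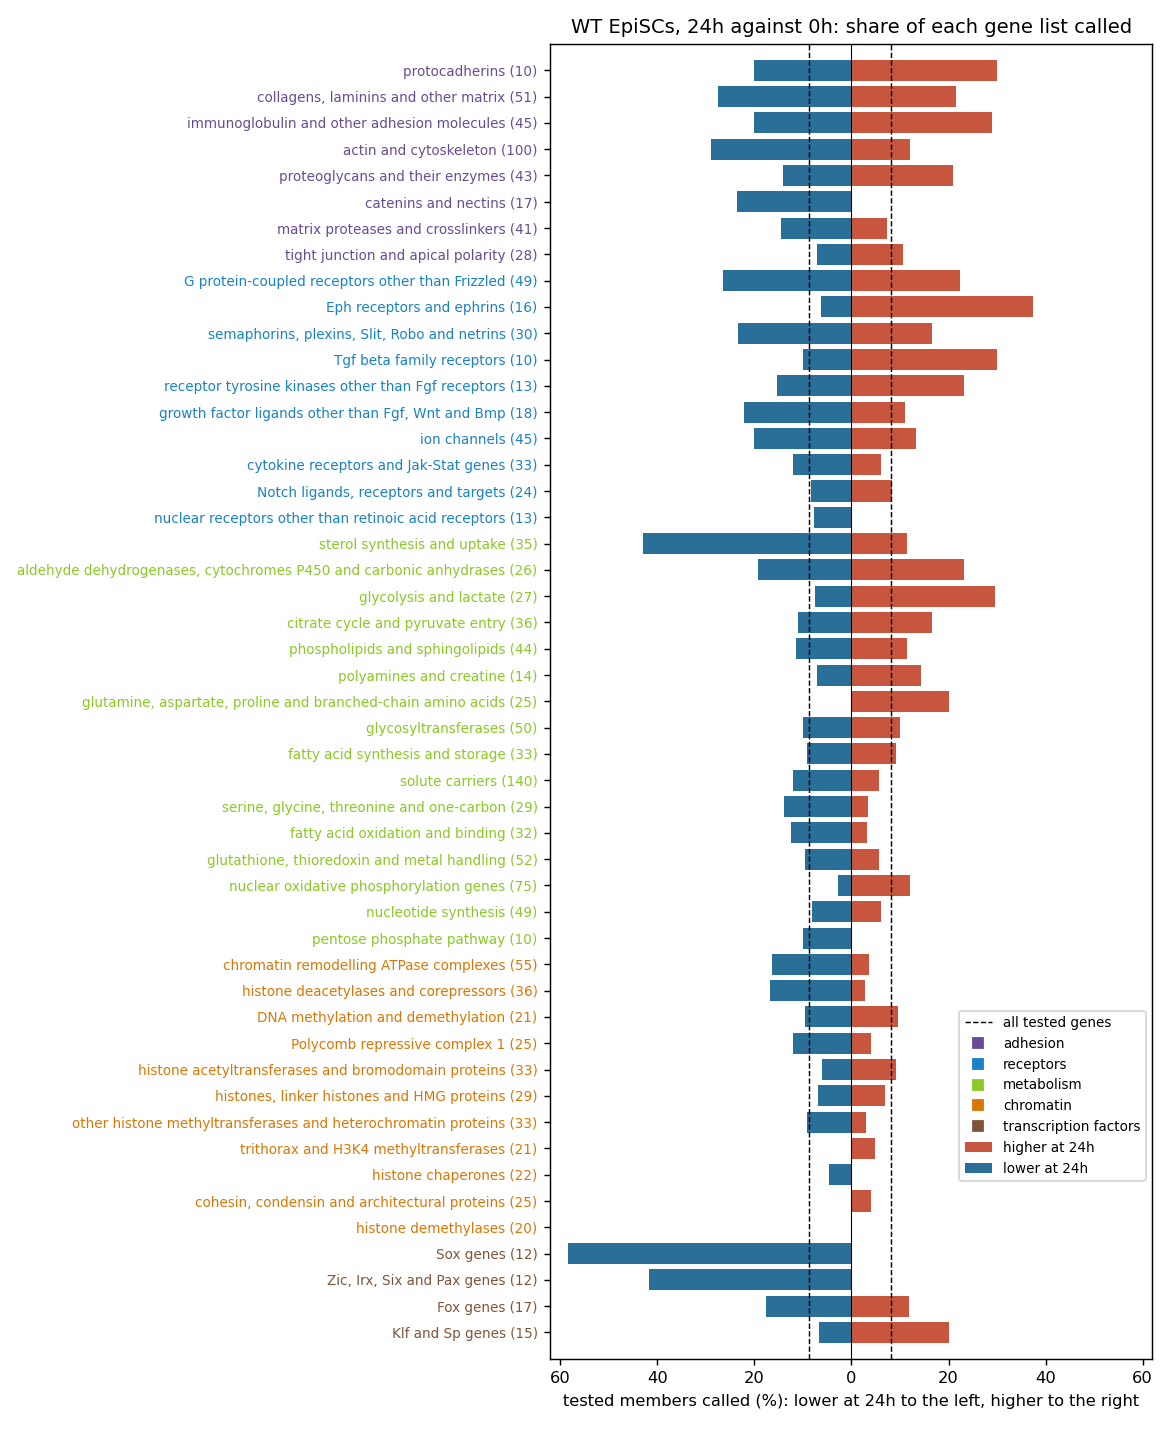
Share of the tested members of each list called lower (left, blue) and higher (right, red) at 24h against 0h in WT EpiSCs, in percent, for the 49 lists with at least 10 tested members (number tested in brackets, class by label colour). Dashed lines are the shares over all tested genes, 8.63% lower and 8.19% higher; Sox genes (58.3% lower) and sterol genes (42.9% lower) reach farthest to the left, and Polycomb complex 2, with 9 tested members, is not drawn.

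In cell-cell adhesion, members of one family moved in opposite directions. Among classical and type II cadherins, of 7 tested members, 2 (28.6%) rose (Cdh11; Cdh3, adjusted p = 0.809 without WT 24h replicate 1) and 2 (28.6%) fell (Cdh4; Cdh12, adjusted p = 0.437 without WT 0h replicate 1). Cdh11, a type II cadherin of mesenchymal cells at chr8:102632095-102785493, had 97.1 and 107 CPM at 24h, against 13.9 and 14.2 CPM at 0h, a log2 difference of 2.84 ± 0.20. Cdh4, the retinal cadherin, had 39 and 41.5 CPM at 24h, against 101 and 71.2 CPM at 0h, a log2 difference of -1.11 ± 0.18. Both 24h libraries of Cdh11 lay above both 0h libraries, and both of Cdh4 below. E-cadherin and N-cadherin, the pair exchanged in textbook streak cells, were not called: Cdh1, E-cadherin, had 6.96 and 4.47 CPM at 24h, against 11.8 and 9.11 CPM at 0h (adjusted p = 0.162), and Cdh2, N-cadherin, had 51.5 and 51 CPM at 24h, against 41.2 and 39.3 CPM at 0h (adjusted p = 0.213). Cdh1 and Cdh2 were chosen after their values were seen.

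Catenins, nectins and the proteins that tie them to actin moved one way where they moved. In this list, of 17 tested members, 0 (0%) rose and 4 (23.5%) fell (Lima1, Pvrl3, Vcl; Pvr, adjusted p = 0.626 without WT 0h replicate 1). There were 0 higher and 6 lower at an unadjusted p below 0.05 by edgeR, and 0 rose with DESeq2. Pvrl3, nectin 3, had 34.8 and 41.5 CPM at 24h, against 84 and 84.8 CPM at 0h. Lima1, the actin-binding protein Eplin that links the cadherin complex to actin filaments, had 11.8 and 12.8 CPM at 24h, against 40.7 and 50.1 CPM at 0h. Vcl, vinculin, which reinforces contacts under tension, had 41.4 and 40.8 CPM at 24h, against 70.6 and 70.0 CPM at 0h. Pvr, the poliovirus receptor, had 11.8 and 11.5 CPM at 24h, against 27.3 and 15.4 CPM at 0h. All 4 were lower in both 24h libraries. The catenins themselves were not called: Ctnnb1, β-catenin, had 868 and 935 CPM at 24h, against 1014 and 1127 CPM at 0h (adjusted p = 0.0684), and Ctnna1, α-catenin, had 332 and 295 CPM at 24h, against 336 and 337 CPM at 0h.

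Protocadherins moved in both directions. In the list, of 10 tested members, 3 (30%) rose (Pcdh18, Pcdh19, Pcdh7) and 2 (20%) fell (Pcdh1; Pcdh17, adjusted p = 0.388 without WT 24h replicate 1). Pcdh18 had 254 and 244 CPM at 24h, against 128 and 138 CPM at 0h, Pcdh19 had 38.6 and 31.9 CPM at 24h, against 11.8 and 10.8 CPM at 0h, and Pcdh7 had 21.2 and 23.6 CPM at 24h, against 9.1 and 9.68 CPM at 0h. In all 3 both 24h libraries lay above both 0h libraries, at log2 differences of 0.91 ± 0.12 in Pcdh18, 1.66 ± 0.26 in Pcdh19 and 1.24 ± 0.29 in Pcdh7. Of the falls, Pcdh17 had 1.74 and 5.74 CPM at 24h, against 10.7 and 11.4 CPM at 0h, and Pcdh1 was near the floor of 3 counts at 24h, with 1.74 and 0 CPM at 24h, against 7.49 and 7.4 CPM at 0h.

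At tight junctions and in apical polarity, of 28 tested members, 3 (10.7%) rose (Amot, Cldn26, Ildr2) and 2 (7.14%) fell (Jam3; Pard6b, adjusted p = 0.302 without WT 0h replicate 1). Ildr2, of the angulin family at corners where 3 cells meet, had 39 and 60.0 CPM at 24h, against 4.28 and 4.55 CPM at 0h, a log2 difference of 3.42 ± 0.32. Amot, angiomotin, a junction protein that binds Yap, had 195 and 168 CPM at 24h, against 84 and 84.3 CPM at 0h. Jam3, a junctional adhesion molecule, fell, with 61.6 and 67 CPM at 24h, against 106 and 95.1 CPM at 0h. Desmosome and keratin genes were mostly under the filter, and of 7 tested members, 1 (14.3%) rose (Dsp) and 1 (14.3%) fell (Pkp2). Pkp2, plakophilin 2, had 8.01 and 15.3 CPM at 24h, against 33.7 and 30.7 CPM at 0h, and both 24h libraries were lower.

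Immunoglobulin-type and other surface adhesion molecules moved in both directions: of 45 tested members, 13 (28.9%) rose and 9 (20%) fell (7 to 11 higher and 4 to 9 lower with 1 WT library left out, with 7 higher without WT 0h replicate 1 and 4 lower without WT 24h replicate 1). Tspan5, a tetraspanin that escorts the protease Adam10, had 148 and 137 CPM at 24h, against 66.9 and 63.2 CPM at 0h, and Adam10 itself, which sheds surface proteins such as Notch, had 87.4 and 91.9 CPM at 24h, against 50.8 and 43.3 CPM at 0h. Igsf21, an immunoglobulin-domain protein of synapses, had 49.1 and 77.8 CPM at 24h, against 14.5 and 22.8 CPM at 0h. Cd47, the ligand of the phagocyte receptor Sirpa, had 21.9 and 31.3 CPM at 24h, against 10.7 and 6.26 CPM at 0h. These 4 were higher in both 24h libraries. On the falling side, Epcam, the epithelial cell adhesion molecule, had 7.31 and 8.29 CPM at 24h, against 38 and 30.2 CPM at 0h, a log2 difference of -2.14 ± 0.29. Emb, embigin, a partner of monocarboxylate transporters, had 95.7 and 93.8 CPM at 24h, against 194 and 183 CPM at 0h. Nfasc, neurofascin, had 4.18 and 5.74 CPM at 24h, against 19.8 and 22.8 CPM at 0h.

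The matrix list changed in both directions. Of 51 tested members, 11 (21.6%) rose and 14 (27.5%) fell (5 to 12 higher and 7 to 10 lower with 1 WT library left out, with 5 higher without WT 24h replicate 1, 6 higher without WT 0h replicate 2 and 7 lower without WT 24h replicate 1). Fn1, fibronectin, at chr1:71585473-71653280, had 465 and 362 CPM at 24h, against 85.1 and 92.2 CPM at 0h, a log2 difference of 2.23 ± 0.15. Lama1, the laminin α1 chain of the early basement membrane, had 44.6 and 30.6 CPM at 24h, against 3.21 and 5.12 CPM at 0h, a log2 difference of 3.20 ± 0.33. Fbln1, fibulin 1, had 60.9 and 37 CPM at 24h, against 14.5 and 14.8 CPM at 0h. All 3 were clear of the 0h libraries. Sparc, a collagen-binding matrix protein, had 330.0 and 389 CPM at 24h, against 724 and 668 CPM at 0h, a log2 difference of -0.96 ± 0.11. Col3a1 had 63.7 and 100.1 CPM at 24h, against 188 and 156 CPM at 0h, and Col5a2 had 20.2 and 19.8 CPM at 24h, against 48.2 and 40.4 CPM at 0h, both lower in both 24h libraries.

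Fibroblast markers moved with the falling collagens, and 2 of them are those collagens. Of 15 fibroblast feeder markers, 7 were tested, 3 fell (Col3a1, Col5a2 and Acta2) and 0 rose by edgeR or DESeq2, with 1 higher and 4 lower at an unadjusted p below 0.05. Acta2, smooth muscle actin, had 34.8 and 44.7 CPM at 24h, against 84.6 and 98.5 CPM at 0h, with an adjusted p of 0.465 without WT 24h replicate 1. The summed level of the 7 was 171 and 209.9 CPM at 24h, against 382 and 345 CPM at 0h. The other 8, among them the defining markers Pdgfrb, Postn, Dcn, Lum and Twist2, were under the filter, and the labels describe at least 2 passages without feeders. Whether fibroblasts or their RNA had a part in the falls of Col3a1 and Col5a2 was not tested, and in bulk RNA fewer cells of a type and less RNA per cell cannot be told apart.

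**Figure D2:**
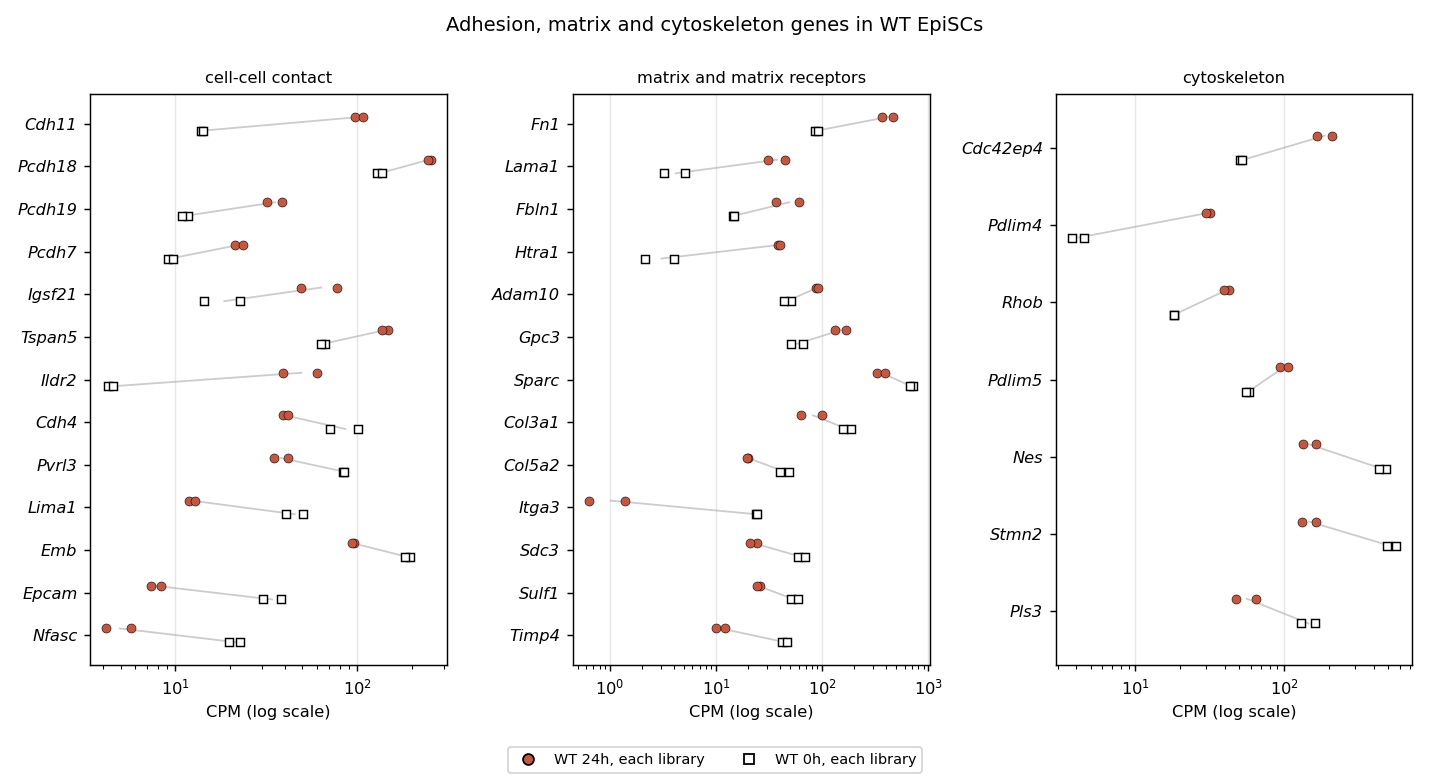
CPM on a log scale of named adhesion, matrix and cytoskeleton genes, with each WT 24h library as a red circle above each WT 0h library as an open square; grey lines join the group means. No gene drawn has overlapping groups, which the rule for naming genes largely set in advance. Itga3 is lowest at 24h, with 1.39 and 0.638 CPM.

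Among matrix receptors, 5 integrins of 20 passed the filter, and 2 of the 5 fell (Itga3; Itgb1, adjusted p = 0.308 without WT 24h replicate 1) while 0 rose by edgeR or DESeq2, with 1 higher and 2 lower at an unadjusted p below 0.05. Itga3, the α3 subunit of a laminin receptor, at chr11:95044475-95076844, had 1.39 and 0.638 CPM at 24h, against 23.5 and 24.5 CPM at 0h, a log2 difference of -4.33 ± 0.48. Itgb1, the β1 subunit that most matrix-binding integrins share, had 467 and 519 CPM at 24h, against 617 and 593 CPM at 0h. Itgav, the α subunit of fibronectin and vitronectin receptors, was not called and had 121 and 125 CPM at 24h, against 105 and 92.8 CPM at 0h.

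Proteoglycans, which hold growth factors at the cell surface, shifted between family members. In that list, of 43 tested members, 9 (20.9%) rose and 6 (14%) fell (6 to 9 higher and 4 to 6 lower with 1 WT library left out). Gpc3, glypican 3, had 167 and 132 CPM at 24h, against 50.8 and 65.5 CPM at 0h. Sdc3, syndecan 3, had 24.4 and 21 CPM at 24h, against 58.9 and 68.3 CPM at 0h. Sulf1, which removes sulfate from heparan chains and so changes Wnt and Fgf binding, had 25.8 and 24.2 CPM at 24h, against 50.3 and 58.6 CPM at 0h. Gpc3 was higher and the other two lower in both 24h libraries. Among matrix proteases and crosslinkers, of 41 tested members, 3 (7.32%) rose (Adam10, Htra1; Serpinh1, adjusted p = 0.0856 without WT 0h replicate 2) and 6 (14.6%) fell (2 to 3 higher and 2 to 5 lower with 1 WT library left out, with 2 lower without WT 24h replicate 1 and 3 lower without WT 0h replicate 1). Htra1, a secreted serine protease, had 38.3 and 40.2 CPM at 24h, against 2.14 and 3.99 CPM at 0h, a log2 difference of 3.66 ± 0.35. Timp4, an inhibitor of metalloproteases, had 10.1 and 12.1 CPM at 24h, against 41.7 and 46.1 CPM at 0h, a log2 difference of -2.01 ± 0.25.

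More cytoskeleton genes fell than rose: of 100 tested members, 12 (12%) rose and 29 (29%) fell (9 to 11 higher and 16 to 24 lower with 1 WT library left out, with 16 lower without WT 24h replicate 1). Their summed level was 42387 and 42659 CPM at 24h, against 47279.5 and 45966 CPM at 0h. Nes, the intermediate filament protein nestin of neural and epiblast progenitors, had 133 and 163 CPM at 24h, against 487 and 433 CPM at 0h, a log2 difference of -1.65 ± 0.12. Stmn2, a stathmin that destabilises microtubules, had 132 and 163 CPM at 24h, against 488 and 566 CPM at 0h, a log2 difference of -1.86 ± 0.13. Pls3, plastin 3, an actin bundler, had 47.3 and 65.1 CPM at 24h, against 129.5 and 162 CPM at 0h. These falls held in both 24h libraries. Among the genes that rose, Cdc42ep4, an effector of the small GTPase Cdc42, had 208 and 166 CPM at 24h, against 50.8 and 51.8 CPM at 0h. Pdlim4, a PDZ and LIM domain protein of actin fibres, had 31.7 and 30.0 CPM at 24h, against 3.75 and 4.55 CPM at 0h, and its relative Pdlim5 had 93.3 and 106 CPM at 24h, against 58.3 and 55.8 CPM at 0h. Rhob, an endosomal small GTPase, had 42.5 and 39.5 CPM at 24h, against 18.2 and 18.2 CPM at 0h. Vim, vimentin, whose rise is a usual sign of mesenchymal cells, fell, with 603 and 717 CPM at 24h, against 1087 and 1202 CPM at 0h. Ezr, ezrin, which ties the apical membrane to actin, also fell, with 68.2 and 61.9 CPM at 24h, against 159 and 121 CPM at 0h. Vim and Ezr were chosen after their values were seen. Tuba1b, an α-tubulin, was not called and had 4103 and 4256 CPM at 24h, against 4329 and 4346 CPM at 0h.

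Receptor tyrosine kinases outside the Fgf family turned over in part, and of 13 tested members, 3 (23.1%) rose (Pdgfra; Ptk7, adjusted p = 0.32 without WT 24h replicate 1; Ror2, adjusted p = 0.253 without WT 24h replicate 1) and 2 (15.4%) fell (Axl, Tyro3). Pdgfra, the platelet-derived growth factor receptor of early mesoderm, had 37.6 and 30.6 CPM at 24h, against 12.3 and 7.4 CPM at 0h, a log2 difference of 1.80 ± 0.27. Axl had 21.6 and 23.6 CPM at 24h, against 68.5 and 59.2 CPM at 0h, and Tyro3 had 24 and 29.3 CPM at 24h, against 57.3 and 61.5 CPM at 0h. Axl and Tyro3 belong to the same family of 3 receptors, and their ligand Gas6 also fell, with 18.1 and 14.7 CPM at 24h, against 38 and 29 CPM at 0h. All of these held in both 24h libraries. Ptk7, a pseudokinase of planar polarity, had 117 and 66.3 CPM at 24h, against 56.2 and 46.1 CPM at 0h. Among growth factor ligands other than Fgf, Wnt and Bmp, of 18 tested members, 2 (11.1%) rose (Grn, adjusted p = 0.124 without WT 24h replicate 1; Igfbp4, adjusted p = 0.186 without WT 24h replicate 1) and 4 (22.2%) fell (Igf2; Gas6, adjusted p = 0.13 without WT 0h replicate 1; Igf1, adjusted p = 0.269 with DESeq2; Igfbp5, adjusted p = 0.47 without WT 0h replicate 2). Igf2, insulin-like growth factor 2, had 128 and 103 CPM at 24h, against 432 and 412 CPM at 0h, a log2 difference of -1.85 ± 0.13. Mdk, the growth factor midkine, was not called and had 1535 and 1694 CPM at 24h, against 1186 and 1444 CPM at 0h.

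Eph receptors and ephrins, which sort cells by contact repulsion, had more rises than falls. Of 16 tested members, 6 (37.5%) rose and 1 (6.25%), Ephb3, fell (3 to 5 higher and 1 lower with 1 WT library left out, with 3 higher without WT 24h replicate 1 and 3 higher without WT 0h replicate 2). Ephb1 had 80.1 and 64.4 CPM at 24h, against 25.2 and 21.6 CPM at 0h, and Epha4 had 24.4 and 21 CPM at 24h, against 8.56 and 8.54 CPM at 0h. Ephb3 had 17.1 and 14 CPM at 24h, against 46 and 36.4 CPM at 0h. Efna1, an ephrin-A ligand chosen after its values were seen, had 7.66 and 6.38 CPM at 24h, against 0 and 0 CPM at 0h; against a floor of 3 counts over both 0h libraries it was at least 8.26-fold higher at 24h. The ephrin Efna4 had 27.1 and 22.3 CPM at 24h, against 14.5 and 12.5 CPM at 0h, with an adjusted p of 0.202 with DESeq2. The ephrin Efnb1 had 21.6 and 19.1 CPM at 24h, against 10.7 and 9.68 CPM at 0h, with an adjusted p of 0.247 with DESeq2. The receptors Ephb1 and Ephb3, of one subclass, thus moved in opposite directions in both libraries of each group.

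Semaphorins, plexins and the other axon guidance genes, which also steer migrating mesoderm, moved in both directions: of 30 tested members, 5 (16.7%) rose (Dpysl4, Nrp2, Plxna2; Nrp1, adjusted p = 0.136 without WT 24h replicate 1; Sema5a, adjusted p = 0.148 with DESeq2) and 7 (23.3%) fell (3 to 5 higher and 3 to 5 lower with 1 WT library left out, with 3 lower without WT 24h replicate 2 and 3 lower without WT 0h replicate 2). Nrp2, neuropilin 2, a co-receptor of semaphorins and of Vegf, had 196 and 130.1 CPM at 24h, against 61.5 and 57.5 CPM at 0h, a log2 difference of 1.48 ± 0.17. Plxna2 had 37.9 and 44 CPM at 24h, against 19.3 and 17.6 CPM at 0h, while Plxnb2 had 39.7 and 42.7 CPM at 24h, against 73.9 and 73.4 CPM at 0h. Sema6d, a membrane-bound semaphorin, had 16.7 and 19.1 CPM at 24h, against 39.6 and 53.5 CPM at 0h. Nrp2 and Plxna2 were higher and Plxnb2 and Sema6d lower in both 24h libraries. Sema6a, another semaphorin, was not called, with 175 and 175 CPM at 24h, against 161 and 173 CPM at 0h.

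G protein-coupled receptors were among the lists with the largest share called: 11 of 49 tested (22.4%) rose and 13 (26.5%) fell (5 to 11 higher and 6 to 11 lower with 1 WT library left out, with 5 higher without WT 0h replicate 1 and 6 lower without WT 0h replicate 1). Of the 11 that rose, 11 had a log2 difference of 1 or more, as had 9 of the 13 that fell. Cxcr4, the receptor of the chemokine Cxcl12 and a guide of migrating mesoderm, at chr1:128588199-128592299, had 108 and 79.1 CPM at 24h, against 15.5 and 9.11 CPM at 0h, a log2 difference of 2.93 ± 0.23. Aplnr, the receptor of apelin and Elabela, had 34.1 and 25.5 CPM at 24h, against 3.21 and 1.71 CPM at 0h, a log2 difference of 3.59 ± 0.38. Adra1b, an α1 adrenergic receptor, had 38.6 and 23 CPM at 24h, against 2.68 and 3.42 CPM at 0h, and Gpr98, a very large adhesion receptor, had 34.5 and 35.7 CPM at 24h, against 12.8 and 10.8 CPM at 0h. All 4 were far from the 0h libraries. Ptger4, a prostaglandin E2 receptor at chr15:5233399-5244187, had 1.04 and 0.638 CPM at 24h, against 30.5 and 33.6 CPM at 0h, a log2 difference of -5.05 ± 0.44. Lgr4, a receptor of R-spondins, which amplify Wnt signals, had 27.1 and 23 CPM at 24h, against 54.1 and 44.4 CPM at 0h, and F2r, the thrombin receptor, had 47 and 47.8 CPM at 24h, against 75.5 and 94.5 CPM at 0h. Ramp3, an accessory protein of the calcitonin receptor family that was not on this list, fell with 1.39 and 1.28 CPM at 24h, against 28.4 and 27.9 CPM at 0h, a log2 difference of -4.31 ± 0.41. The calcitonin receptor itself, Calcr, was also not on this list, which thus does not hold every receptor of the family. Calcr, chosen after its values were seen, had 0 pooled counts at 24h, against 62 pooled counts at 0h. Against a floor of 3 counts over both 24h libraries it was at least 26.7-fold higher at 0h.

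**Figure D3:**
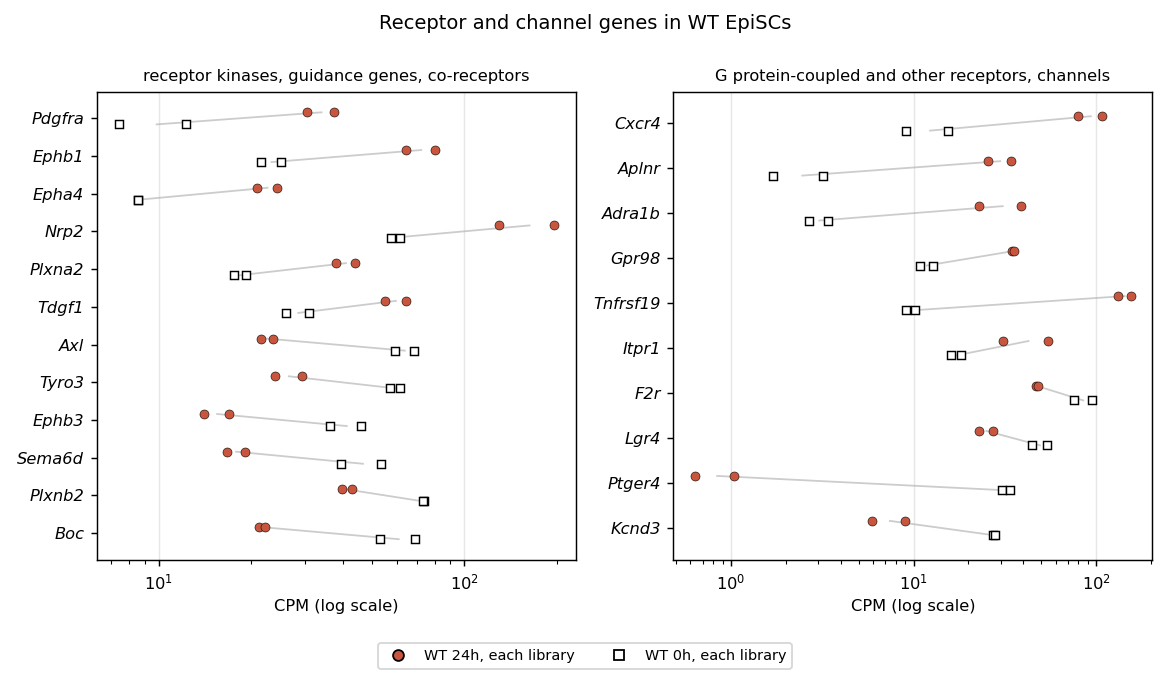
CPM on a log scale of named receptor, guidance and channel genes, with each WT 24h library as a red circle above each WT 0h library as an open square; grey lines join the group means. The groups overlap in none of the genes drawn, which the rule for naming genes largely set in advance. Ptger4 is lowest at 24h, with 1.04 and 0.638 CPM.

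Signalling through other receptor families changed in single genes. Tnfrsf19, a tumour necrosis factor receptor family member known as a Wnt target, had 155 and 132 CPM at 24h, against 9.1 and 10.2 CPM at 0h, a log2 difference of 3.89 ± 0.21. In the cytokine and Jak-Stat list as a whole, of 33 tested members, 2 (6.06%) rose (Tnfrsf19; Socs1, adjusted p = 0.322 without WT 0h replicate 2) and 4 (12.1%) fell (Cntfr, adjusted p = 0.102 without WT 0h replicate 1; Ghr, adjusted p = 0.341 without WT 24h replicate 1; Lepr, adjusted p = 0.185 without WT 0h replicate 1; Socs2, adjusted p = 0.795 without WT 0h replicate 1). Among receptors of the Tgf β family, of 10 tested members, 3 (30%) rose (Tdgf1, Tgfbr3; Amhr2, adjusted p = 0.0574 with DESeq2) and 1 (10%) fell (Acvr1, adjusted p = 0.319 with DESeq2). Tdgf1, the Nodal co-receptor Cripto, had 55 and 64.4 CPM at 24h, against 31 and 26.2 CPM at 0h, and Tgfbr3, betaglycan, had 16.7 and 16.6 CPM at 24h, against 5.35 and 5.12 CPM at 0h. Bmpr2, a type II receptor of Bmp ligands, was not called and had 59.2 and 65.1 CPM at 24h, against 45 and 52.9 CPM at 0h. In the Hedgehog pathway, of 7 tested members, 1 (14.3%) rose (Smo, adjusted p = 0.221 with DESeq2) and 2 (28.6%) fell (Boc; Cdon, adjusted p = 0.297 without WT 24h replicate 1). Boc, a co-receptor of Hedgehog ligands, had 21.2 and 22.3 CPM at 24h, against 69 and 52.9 CPM at 0h, and the transducer Smo had 76.2 and 77.2 CPM at 24h, against 56.7 and 53.5 CPM at 0h. In the Notch list, of 24 tested members, 2 (8.33%) rose (Dll3, Hes7) and 2 (8.33%) fell (Dlk1, adjusted p = 0.186 without WT 0h replicate 2; Notch3, adjusted p = 0.244 without WT 0h replicate 2). Dll3, a Notch ligand of presomitic mesoderm, had 127 and 90.6 CPM at 24h, against 49.2 and 32.5 CPM at 0h, a log2 difference of 1.43 ± 0.19. Of 13 nuclear receptors tested, 1 was called lower (Rxrg, adjusted p = 0.36 without WT 0h replicate 2), at 9.05 and 6.38 CPM at 24h, against 13.4 and 20.5 CPM at 0h.

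Ion channel genes were mostly under the filter, with 45 of 194 tested. Of the 45, 6 (13.3%) rose and 9 (20%) fell (4 to 5 higher and 4 to 8 lower with 1 WT library left out, with 4 lower without WT 24h replicate 1 and 4 lower without WT 0h replicate 1). Itpr1, the inositol trisphosphate receptor that releases calcium from the endoplasmic reticulum, had 31 and 54.2 CPM at 24h, against 16.1 and 18.2 CPM at 0h. Kcnd3, a voltage-gated potassium channel, had 5.92 and 8.93 CPM at 24h, against 27.3 and 27.9 CPM at 0h, a log2 difference of -1.96 ± 0.34. Both were separated between the groups.

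Sterol synthesis had the largest share called of the metabolic lists, mostly lower. Of 35 tested genes, 15 (42.9%) fell and 4 (11.4%) rose, and 12 to 16 fell and 2 to 4 rose with 1 WT library left out. The median difference was -0.35, and the summed level was 4085 and 4281 CPM at 24h, against 6125 and 6326 CPM at 0h. The genes that fell lay between the entry of the pathway and its last reductions, but not at every step. Of the 35 tested genes, 16 were not called, and enzymes of the pathway were among these. Hmgcs1, which makes HMG-CoA, at chr13:119690351-119708260, had 633 and 613 CPM at 24h, against 1259 and 1259.9 CPM at 0h, a log2 difference of -1.01 ± 0.09. Idi1, which interconverts the isoprene units, had 13.2 and 19.1 CPM at 24h, against 40.1 and 39.9 CPM at 0h. In the step to farnesyl diphosphate Fdps had 160.1 and 207 CPM at 24h, against 343 and 434 CPM at 0h. Fdft1, squalene synthase, had 208 and 205 CPM at 24h, against 454 and 425 CPM at 0h, and Sqle, squalene epoxidase, had 148 and 168 CPM at 24h, against 276 and 298 CPM at 0h. Each of these was lower in both 24h libraries, with log2 differences between -0.87 ± 0.12 in Sqle and -1.36 ± 0.24 in Idi1.

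Past squalene, Sc4mol, the C4-methyl sterol oxidase now named Msmo1, had 249 and 331 CPM at 24h, against 619.8 and 727 CPM at 0h, a log2 difference of -1.23 ± 0.12. Lss, which closes the ring to lanosterol, had 16.7 and 17.9 CPM at 24h, against 38.5 and 32.5 CPM at 0h, with an adjusted p of 0.053 without WT 0h replicate 1. Cyp51, the lanosterol demethylase, had 319 and 410.1 CPM at 24h, against 494 and 538 CPM at 0h, with an adjusted p of 0.107 without WT 24h replicate 1. Insig1, the sterol sensor that the pathway's own regulator Srebf2 induces, had 62.3 and 44.7 CPM at 24h, against 99.5 and 96.8 CPM at 0h. Among the others that fell were Acat2, Pmvk, Nsdhl and Dhcr7, with log2 differences between -0.88 in Pmvk and -0.40 in Acat2. Of these, Acat2 had an adjusted p of 0.0734 without WT 24h replicate 1, and Nsdhl of 0.0557 without WT 24h replicate 1. In the same list 4 genes rose (Npc2, Vldlr; Lrp8, adjusted p = 0.382 without WT 0h replicate 2; Soat1, adjusted p = 0.153 without WT 0h replicate 2). Vldlr, a lipoprotein receptor, had 21.6 and 30.6 CPM at 24h, against 10.7 and 8.54 CPM at 0h, and Npc2, which moves cholesterol out of lysosomes, had 608 and 566 CPM at 24h, against 278 and 294 CPM at 0h. Soat1, which esterifies cholesterol, had 70.3 and 60.0 CPM at 24h, against 46.6 and 31.9 CPM at 0h. Lrp8, a receptor of Reelin and lipoproteins, had 67.9 and 53.6 CPM at 24h, against 48.7 and 30.7 CPM at 0h. Srebf2, the regulator, was not called and had 11.1 and 6.38 CPM at 24h, against 8.56 and 6.83 CPM at 0h. Of the sterol genes given here, Acat2, Dhcr7, Insig1, Lss, Nsdhl, Pmvk, Sqle and Srebf2 were chosen after their values were seen.

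**Figure D4:**
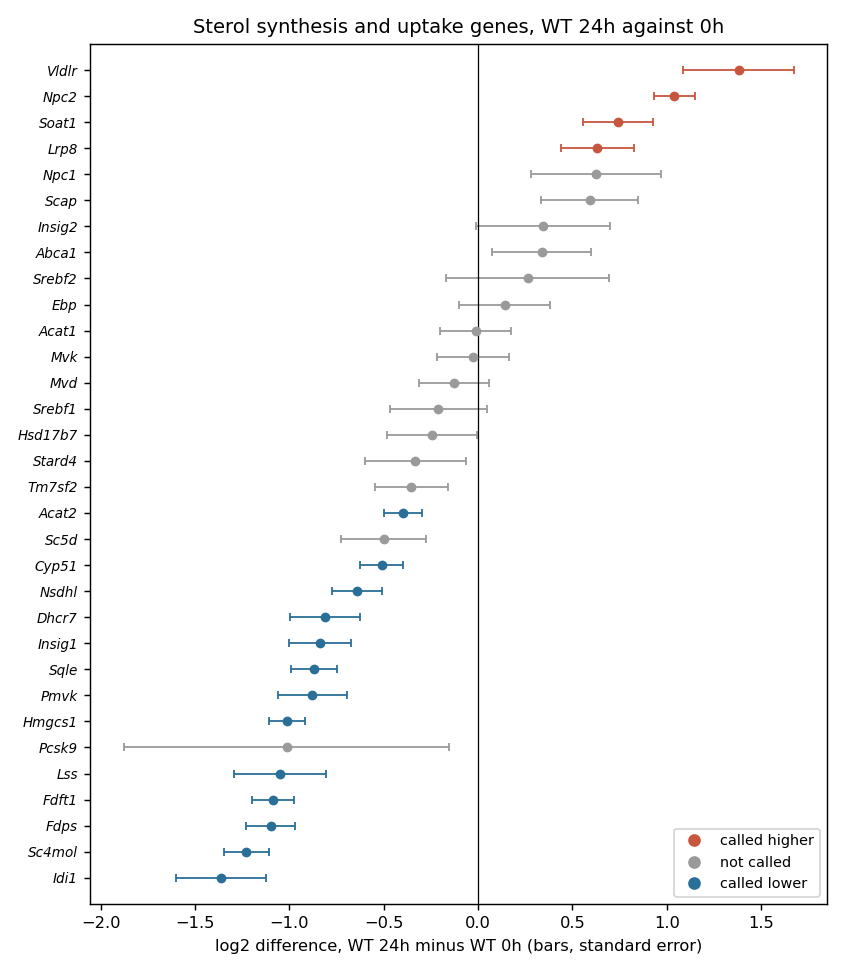
Log2 difference, WT 24h minus WT 0h, of 32 of the 35 tested sterol synthesis and uptake genes, ordered by value, with standard errors as bars; 3 tested genes, 2 of them called lower, are not drawn. The 13 genes drawn as called lower (blue) run from Acat2 at -0.40 to Idi1 at -1.36; the 4 called higher (red) are Vldlr, Npc2, Soat1 and Lrp8, and 15 drawn genes are not called (grey).

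Because 15 genes of the list fell, the promoters of 3 of them are shown, as 300 bases from 250 before to 50 after the RefSeq start on GRCm38.p6. Capitals mark the sterol element TCACNCCAC, known as a site of the Srebf factors, and the box CCAAT, a site of NF-Y, on either strand (reverse complements GTGGNGTGA and ATTGG), with no overlap between them in these windows.
Hmgcs1 (chr13:119690101-119690400, plus strand): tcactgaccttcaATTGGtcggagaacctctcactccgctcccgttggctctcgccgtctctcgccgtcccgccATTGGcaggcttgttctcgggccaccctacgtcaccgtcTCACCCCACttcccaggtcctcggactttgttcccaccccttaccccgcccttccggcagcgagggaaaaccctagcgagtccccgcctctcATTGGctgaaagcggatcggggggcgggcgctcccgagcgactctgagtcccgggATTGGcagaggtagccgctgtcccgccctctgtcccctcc
Sc4mol (chr8:64733529-64733828, minus strand): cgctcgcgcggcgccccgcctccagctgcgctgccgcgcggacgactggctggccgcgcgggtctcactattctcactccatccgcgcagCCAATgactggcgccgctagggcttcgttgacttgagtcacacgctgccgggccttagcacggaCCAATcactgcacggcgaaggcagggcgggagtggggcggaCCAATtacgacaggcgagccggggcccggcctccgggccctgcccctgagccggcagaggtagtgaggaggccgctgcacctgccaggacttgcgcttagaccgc
Idi1 (chr13:8885356-8885655, plus strand): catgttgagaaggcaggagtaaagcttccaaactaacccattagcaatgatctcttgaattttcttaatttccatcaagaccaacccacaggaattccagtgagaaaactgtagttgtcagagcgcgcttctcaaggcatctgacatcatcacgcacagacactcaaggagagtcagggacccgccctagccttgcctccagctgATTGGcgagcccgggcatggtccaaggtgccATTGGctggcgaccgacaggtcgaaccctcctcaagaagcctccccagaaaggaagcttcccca
The window of Hmgcs1 held 1 sterol element and 4 CCAAT boxes, that of Sc4mol 3 CCAAT boxes and that of Idi1 2. Over all 32851 promoter windows of this length, 1.24% held the sterol element and 37.4% a CCAAT box. Of the 15 sterol genes that fell, 10 had a window in the table, 1 of the 10 had a sterol element and 9 a CCAAT box. Of the 16 tested sterol genes that were not called, 11 had a window, 0 had a sterol element and 9 had a CCAAT box. All 4 that rose had a window, 0 with a sterol element and 3 with a CCAAT box. Some genes had several windows, and the shares over all promoters count windows, not genes. Counted by window, a CCAAT box was in 9 of 13 for genes that fell and 10 of 16 for genes not called. For genes that rose it was in 3 of 7. A match is a description of letters, not of binding.

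In glycolysis and lactate metabolism more genes rose than fell. Of 27 tested glycolysis and lactate genes, 8 (29.6%) rose and 2 (7.41%) fell (Aldoc; Eno3, adjusted p = 0.282 with DESeq2). The number that rose was 3 without WT 24h replicate 1, 2 without WT 0h replicate 1 and 5 without WT 0h replicate 2. Slc16a1, the lactate and pyruvate transporter MCT1, had 65.1 and 67.6 CPM at 24h, against 32.6 and 19.4 CPM at 0h, a log2 difference of 1.34 ± 0.22. Ldha, lactate dehydrogenase A, had 1285 and 1189 CPM at 24h, against 982 and 808 CPM at 0h, with an adjusted p of 0.0617 without WT 0h replicate 2. Tpi1, triosephosphate isomerase, had 586 and 449 CPM at 24h, against 361 and 388 CPM at 0h, with an adjusted p of 0.171 without WT 24h replicate 1. Aldoc, an aldolase, fell in both libraries, with 113 and 114 CPM at 24h, against 178 and 208 CPM at 0h. Gapdh was not called and had 7927 and 7507 CPM at 24h, against 7272 and 7261 CPM at 0h. Of the 8 rises, only that of Slc16a1 was called in all 9 alternatives. In Null cells 1 of the 8 was also called higher, against 499 of the 795 genes that rose over the whole table. Of the 2 falls, 1 was called lower in Null cells. A missing call in Null cells is not a test of a difference between the lines.

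Around pyruvate and the citrate cycle, of 36 tested members, 6 (16.7%) rose and 4 (11.1%) fell (Idh1, adjusted p = 0.0759 without WT 0h replicate 2; Me1, adjusted p = 0.0778 without WT 24h replicate 1; Me2, adjusted p = 0.2 without WT 0h replicate 1; Pck2, adjusted p = 0.0535 without WT 0h replicate 1) (2 to 4 higher and 2 to 3 lower with 1 WT library left out, with 3 higher without WT 24h replicate 1 and 2 higher without WT 0h replicate 1). Pdha1, the catalytic subunit of pyruvate dehydrogenase, had 248 and 288 CPM at 24h, against 148 and 170.2 CPM at 0h, a log2 difference of 0.75 ± 0.12. Pcx, pyruvate carboxylase, which feeds oxaloacetate into the cycle, had 29.9 and 23.6 CPM at 24h, against 8.03 and 8.54 CPM at 0h, a log2 difference of 1.72 ± 0.32. Me1, the cytosolic malic enzyme, had 34.5 and 51.7 CPM at 24h, against 77.1 and 79.1 CPM at 0h. Idh1, the cytosolic isocitrate dehydrogenase, had 120.1 and 124 CPM at 24h, against 168 and 195 CPM at 0h. Pdha1 and Pcx rose, and Me1 and Idh1 fell, as did the mitochondrial enzymes Me2 and Pck2. Of 75 nuclear genes of oxidative phosphorylation, 9 (12%) rose and 2 (2.67%) fell (Cox7c, adjusted p = 0.418 without WT 0h replicate 1; Ndufc2, adjusted p = 0.355 without WT 0h replicate 1) (6 to 9 higher and 0 to 2 lower with 1 WT library left out), all by under 1 on the log2 scale. In this list 14.7% were called, below the 16.8% over all tested genes, where 8.19% rose and 8.63% fell. Of the 9 rises, 4 were also called higher in Null cells, and of the 2 falls 0 were called lower there. Cox8a had 1739 and 1711 CPM at 24h, against 1298 and 1266 CPM at 0h, Cox7a2 had 436 and 393 CPM at 24h, against 302 and 292 CPM at 0h, and Cox7a2l had 492 and 491 CPM at 24h, against 367 and 355 CPM at 0h, each a subunit or partner of cytochrome oxidase. Ndufb5, a subunit of complex I, had 379 and 407 CPM at 24h, against 259.6 and 293 CPM at 0h. The 24h libraries were higher in all 4, by a log2 difference of 0.43 to 0.51. Genes encoded in mitochondrial DNA were looked for by symbol and 0 were found among the 15807 genes, so they have no values here.

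Glutamine, aspartate, proline and branched-chain amino acid genes moved up where they moved: of 25 tested members, 5 (20%) rose (Aldh4a1, Glul, Oat; Gad1, adjusted p = 0.305 without WT 24h replicate 1; Got2, adjusted p = 0.326 without WT 0h replicate 2) and 0 (0%) fell by edgeR, and 0 fell with DESeq2, with 7 higher and 1 lower at an unadjusted p below 0.05. Glul, glutamine synthetase, had 316 and 246 CPM at 24h, against 116 and 102 CPM at 0h, a log2 difference of 1.38 ± 0.14. Oat, ornithine aminotransferase, had 195 and 205 CPM at 24h, against 111 and 103 CPM at 0h, and Aldh4a1, which turns the proline breakdown product into glutamate, had 39 and 36.4 CPM at 24h, against 15.5 and 17.1 CPM at 0h. These 3 were higher in both 24h libraries. In polyamine and creatine metabolism, of 14 tested members, 2 (14.3%) rose (Odc1, Sat1) and 1 (7.14%) fell (Gatm, adjusted p = 0.36 with DESeq2). Odc1, the rate-limiting decarboxylase, had 978 and 1004 CPM at 24h, against 527 and 596 CPM at 0h, and Sat1, which acetylates polyamines for export, had 147 and 148 CPM at 24h, against 47.6 and 51.8 CPM at 0h. Enzymes of polyamine synthesis and of polyamine breakdown thus rose side by side. Among serine and one-carbon genes, of 29 tested members, 1 (3.45%) rose (Mthfd2l, adjusted p = 0.301 without WT 24h replicate 1) and 4 (13.8%) fell (Mthfd2, Psph; Fpgs, adjusted p = 0.338 without WT 0h replicate 1; Mthfd1, adjusted p = 0.0536 without WT 24h replicate 1). Mthfd2, the mitochondrial folate enzyme, had 73.1 and 75.9 CPM at 24h, against 131 and 122 CPM at 0h, and Psph, the last enzyme of serine synthesis, had 40.7 and 43.4 CPM at 24h, against 68.5 and 71.2 CPM at 0h. Rrm2, the regulated subunit of ribonucleotide reductase, had 751 and 868 CPM at 24h, against 1352 and 1349.9 CPM at 0h, and Upp1, uridine phosphorylase, had 128 and 89.3 CPM at 24h, against 15.5 and 13.7 CPM at 0h, a log2 difference of 2.92 ± 0.21. Rrm2 was lower and Upp1 higher in both 24h libraries, while in the whole nucleotide list of 49 tested members, 3 (6.12%) rose (Upp1; Ak3, adjusted p = 0.243 with DESeq2; Impdh2, adjusted p = 0.699 without WT 24h replicate 1) and 4 (8.16%) fell (Rrm2; Ak4, adjusted p = 0.284 with DESeq2; Dut, adjusted p = 0.169 without WT 0h replicate 2; Prps1, adjusted p = 0.302 without WT 0h replicate 2).

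Of 140 solute carriers tested, 8 (5.71%) rose and 17 (12.1%) fell, against 8.19% and 8.63% over all tested genes (4 to 11 higher and 9 to 13 lower with 1 WT library left out, with 5 higher without WT 24h replicate 1, 4 higher without WT 0h replicate 2, 11 lower without WT 24h replicate 1 and 9 lower without WT 0h replicate 1). Slc7a3, a carrier of arginine and lysine, had 27.8 and 33.8 CPM at 24h, against 177 and 163 CPM at 0h, a log2 difference of -2.49 ± 0.18. Slc29a1, the nucleoside carrier ENT1, had 166 and 133 CPM at 24h, against 256 and 294 CPM at 0h, and Slc39a8, a zinc and manganese carrier, had 7.31 and 8.29 CPM at 24h, against 23 and 23.3 CPM at 0h. Slc3a2, the shared heavy chain of amino acid exchangers, had 542 and 511 CPM at 24h, against 732 and 656 CPM at 0h, with an adjusted p of 0.115 without WT 0h replicate 1. Slc1a5, a glutamine carrier, had 355 and 243 CPM at 24h, against 214 and 188 CPM at 0h, with an adjusted p of 0.224 without WT 24h replicate 1. In the redox and metal list, of 52 tested members, 3 (5.77%) rose (Tfrc; Prdx2, adjusted p = 0.109 without WT 0h replicate 1; Txnip, adjusted p = 0.218 with DESeq2) and 5 (9.62%) fell (Gclm, Gsta4; Ggct, adjusted p = 0.15 without WT 24h replicate 1; Mt2, adjusted p = 0.225 without WT 0h replicate 1; Prdx6, adjusted p = 0.097 without WT 24h replicate 1). Tfrc, the transferrin receptor, had 189 and 154 CPM at 24h, against 85.6 and 86.5 CPM at 0h. Gclm, the modifier subunit of the first enzyme of glutathione synthesis, had 32 and 33.8 CPM at 24h, against 99.5 and 90.0 CPM at 0h, a log2 difference of -1.53 ± 0.17, and Gsta4, a glutathione transferase, had 140.3 and 173 CPM at 24h, against 273 and 325 CPM at 0h. Tfrc was higher and the 2 glutathione genes were lower in both 24h libraries.

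Lipid genes outside the sterol pathway changed singly. In fatty acid synthesis and storage, of 33 tested members, 3 (9.09%) rose (Ptplad1; Elovl1, adjusted p = 0.0702 with DESeq2; Ptpla, adjusted p = 0.0544 without WT 0h replicate 1) and 3 (9.09%) fell (Acsl4, Elovl6; Elovl5, adjusted p = 0.28 without WT 0h replicate 1). Ptplad1, a dehydratase of fatty acid elongation, had 217 and 196 CPM at 24h, against 78.1 and 90.0 CPM at 0h. Acsl4, which activates arachidonic acid, had 52.9 and 44 CPM at 24h, against 163 and 130.4 CPM at 0h, a log2 difference of -1.57 ± 0.15, and Elovl6, an elongase, had 68.2 and 71.4 CPM at 24h, against 116 and 123 CPM at 0h. Scd2, a desaturase, was not called and had 2352 and 1954 CPM at 24h, against 1994 and 1891 CPM at 0h. Among lipid-binding and oxidation genes, of 32 tested members, 1 (3.12%) rose (Acaa2, adjusted p = 0.144 with DESeq2) and 4 (12.5%) fell (Bdh1, Fabp5, Fabp7; Acadl, adjusted p = 0.23 with DESeq2). The fatty acid binding protein Fabp7 had 115 and 122 CPM at 24h, against 193 and 270.4 CPM at 0h, and Fabp5 had 283 and 335 CPM at 24h, against 482 and 477 CPM at 0h. Bdh1, of ketone body metabolism, had 27.5 and 35.1 CPM at 24h, against 80.3 and 56.9 CPM at 0h. Each of these 3 was lower in both 24h libraries. Enpp3, a surface enzyme that splits nucleotide and lipid phosphates, had 0.696 and 0.638 CPM at 24h, against 31.6 and 38.7 CPM at 0h, and its pooled CPM was 54.7 (exact 95% interval 18.3 to 269) times higher at 0h.

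Enzymes that make and break down retinoic acid belong to a wider list of aldehyde dehydrogenases, cytochromes P450 and carbonic anhydrases: of 26 tested members, 6 (23.1%) rose and 5 (19.2%) fell (Cyp2b23; Car2, adjusted p = 0.174 without WT 24h replicate 1; Car3, adjusted p = 0.126 with DESeq2; Cyp2e1, adjusted p = 0.35 without WT 0h replicate 1; Cyp51, adjusted p = 0.107 without WT 24h replicate 1) (4 to 6 higher and 1 to 5 lower with 1 WT library left out). Aldh1a2, the main retinoic acid synthesising enzyme of early mesoderm, had 149 and 99.5 CPM at 24h, against 5.35 and 3.42 CPM at 0h, a log2 difference of 4.83 ± 0.43. Cyp26a1, which degrades retinoic acid, had 65.1 and 45.9 CPM at 24h, against 9.1 and 8.54 CPM at 0h, a log2 difference of 2.68 ± 0.26. Cyp1b1, a cytochrome P450 that also oxidises retinoids, had 24 and 36.4 CPM at 24h, against 0.535 and 0.569 CPM at 0h, and its pooled CPM was 48.8 (exact 95% interval 13.2 to 407) times higher at 24h. These 3 were higher in both 24h libraries, while the retinoid enzymes Aldh1a3 and Cyp26b1 were under the filter. Cyp2b23, a cytochrome P450, had 4.18 and 4.47 CPM at 24h, against 89.4 and 63.8 CPM at 0h, a log2 difference of -4.14 ± 0.28, and Car2, a carbonic anhydrase, had 41.4 and 54.9 CPM at 24h, against 78.7 and 73.4 CPM at 0h.

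Chromatin genes had fewer calls than the background, with large changes in a few. Dnmt3b, the de novo DNA methyltransferase of primed cells at chr2:153649411-153687730, had 42.8 and 40.2 CPM at 24h, against 204 and 194 CPM at 0h, a log2 difference of -2.25 ± 0.14. Dnmt3a, the second de novo enzyme, had 70.0 and 72.1 CPM at 24h, against 118 and 111 CPM at 0h, a log2 difference of -0.69 ± 0.15. Gadd45g rose, with 95.4 and 49.1 CPM at 24h, against 24.1 and 22.8 CPM at 0h, and Gadd45a rose, with 34.1 and 36.4 CPM at 24h, against 25.2 and 7.4 CPM at 0h. Both Gadd45 genes encode stress proteins that have been tied to DNA demethylation. Over the list of DNA methylation genes, of 21 tested members, 2 (9.52%) rose (Gadd45g; Gadd45a, adjusted p = 0.33 without WT 0h replicate 2) and 2 (9.52%) fell (Dnmt3a, Dnmt3b).

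Polycomb complex 2 showed no called gene, with 0 of 9 tested by edgeR and by DESeq2 and 0 higher and 1 lower at an unadjusted p below 0.05. Its methyltransferase Ezh2, chosen after its values were seen, had 97.5 and 127 CPM at 24h, against 109 and 97.4 CPM at 0h, a log2 difference of 0.10 ± 0.15. In Polycomb complex 1, which can bind the histone methylation left by complex 2 and adds ubiquitin to a histone, of 25 tested members, 1 (4%) rose (Cbx2, adjusted p = 0.154 without WT 0h replicate 1) and 3 (12%) fell (Cbx7, Phc1; Cbx6, adjusted p = 0.358 without WT 0h replicate 1). Phc1, a polyhomeotic subunit, had 49.4 and 49.1 CPM at 24h, against 138 and 133 CPM at 0h, a log2 difference of -1.46 ± 0.15. Cbx7, a chromobox subunit of pluripotent cells, had 1.39 and 1.28 CPM at 24h, against 17.1 and 10.2 CPM at 0h, a log2 difference of -3.28 ± 0.56. Cbx2, a chromobox subunit of differentiating cells, had 172 and 163 CPM at 24h, against 95.8 and 130.4 CPM at 0h, and Cbx6 had 89.8 and 81.6 CPM at 24h, against 146 and 106 CPM at 0h. Phc1 and Cbx7 were lower in both 24h libraries, and Cbx2 was higher. Of the chromobox subunits, then, Cbx7 and Cbx6 fell while Cbx2 rose.

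Histone demethylases had 0 of 20 tested called by edgeR and by DESeq2, with 0 higher and 2 lower at an unadjusted p below 0.05. Among H3K4 methyltransferases and trithorax genes the only call of 21 tested was Smyd2, a lysine methyltransferase, with 159 and 121 CPM at 24h, against 82.4 and 70.0 CPM at 0h. In the acetyltransferase and bromodomain list, of 33 tested members, 3 (9.09%) rose (Brd7, Cited1; Cited2, adjusted p = 0.0981 without WT 24h replicate 1) and 2 (6.06%) fell (Bptf, adjusted p = 0.354 without WT 0h replicate 1; Hat1, adjusted p = 0.271 without WT 0h replicate 2). Brd7, a bromodomain subunit of the PBAF remodelling complex, had 262 and 272 CPM at 24h, against 113 and 113 CPM at 0h, a log2 difference of 1.24 ± 0.12. Cited1, a transactivator that binds the acetyltransferases p300 and CBP, had 147 and 128 CPM at 24h, against 24.6 and 29.6 CPM at 0h, a log2 difference of 2.35 ± 0.18. Both 24h libraries of each lay above both 0h libraries.

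More ATP-dependent remodelling genes fell than rose: of 55 tested members, 2 (3.64%) rose (Chd8; Smarcd2, adjusted p = 0.222 with DESeq2) and 9 (16.4%) fell (1 to 2 higher and 5 to 9 lower with 1 WT library left out, with 5 lower without WT 0h replicate 1). The chromodomain helicases split, with Chd8, which restrains β-catenin and p53, at 94.3 and 89.3 CPM at 24h, against 32.1 and 52.4 CPM at 0h, Chd9 at 23 and 26.2 CPM at 24h, against 49.8 and 56.9 CPM at 0h and Chd6 at 45.6 and 45.3 CPM at 24h, against 84 and 90.0 CPM at 0h. Chd8 was higher, and Chd6 and Chd9 were lower, in both 24h libraries. The BAF subunits Bcl11a and Dpf1 also fell: Bcl11a had 37.6 and 33.2 CPM at 24h, against 69.6 and 67.8 CPM at 0h, and Dpf1 had 7.66 and 8.93 CPM at 24h, against 20.9 and 22.8 CPM at 0h. Among deacetylases and corepressors, of 36 tested members, 1 (2.78%) rose (Sirt1, adjusted p = 0.371 without WT 0h replicate 1) and 6 (16.7%) fell (0 to 3 higher and 1 to 2 lower with 1 WT library left out, with 1 lower without WT 24h replicate 1, 2 lower without WT 24h replicate 2, 2 lower without WT 0h replicate 1 and 2 lower without WT 0h replicate 2). Ctbp2, a corepressor, fell in all 9 alternatives, with 85.3 and 106 CPM at 24h, against 178 and 162 CPM at 0h.

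Among histones and HMG proteins, of 29 tested members, 2 (6.9%) rose (H2afy; H2afj, adjusted p = 0.346 without WT 0h replicate 1) and 2 (6.9%) fell (H2afv, Hmga2). Hmga2, an architectural protein of embryonic cells, had 458 and 535 CPM at 24h, against 986 and 894 CPM at 0h, a log2 difference of -0.93 ± 0.10. H2afy, the histone macroH2A1, had 324 and 315 CPM at 24h, against 209 and 233 CPM at 0h, and H2afv, a variant of the H2A.Z type, had 156 and 145 CPM at 24h, against 236 and 224 CPM at 0h. H2afy was higher and H2afv and Hmga2 were lower in both 24h libraries. Nap1l2, a nucleosome assembly protein, had 4.52 and 5.74 CPM at 24h, against 21.4 and 19.9 CPM at 0h, the only call of 22 chaperones tested. Smc6, of the Smc5/6 repair complex, had 132 and 134 CPM at 24h, against 56.7 and 51.2 CPM at 0h, the only call of 25 cohesin, condensin and architectural genes tested.

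Of 65 tested genes of transcription factor families outside the streak lists, 9 rose and 17 fell. Of 12 Sox genes tested, 7 (58.3%) fell and 0 rose by edgeR or DESeq2, with 0 higher and 7 lower at an unadjusted p below 0.05 (0 higher and 6 to 7 lower with 1 WT library left out). Sox2, of the pluripotency core, had 149 and 154 CPM at 24h, against 422 and 406 CPM at 0h, and Sox3, its near relative, had 11.1 and 16.6 CPM at 24h, against 83 and 84.3 CPM at 0h. Sox1, of early neural cells, had 12.2 and 15.9 CPM at 24h, against 62.1 and 50.7 CPM at 0h, and Sox9 had 7.66 and 12.8 CPM at 24h, against 55.1 and 63.2 CPM at 0h. The log2 differences were -1.46 ± 0.13 in Sox2, -2.66 ± 0.21 in Sox3, -2.05 ± 0.24 in Sox1 and -2.62 ± 0.25 in Sox9. Sox1 was also the one called gene of 7 tested neural markers, whose summed level was 169.9 and 209 CPM at 24h, against 262 and 259 CPM at 0h. In the list of Zic, Irx and Pax genes and the relatives of Six3, of 12 tested members, 0 (0%) rose and 5 (41.7%) fell (among them Irx1, adjusted p = 0.586 without WT 0h replicate 2; Six3, adjusted p = 0.22 without WT 24h replicate 1; Six5, adjusted p = 0.33 without WT 0h replicate 1; Six6, adjusted p = 0.063 with DESeq2). There were 0 higher and 5 lower at an unadjusted p below 0.05 by edgeR, and 0 rose and 0 fell with DESeq2. In the list of Id, Hand, Twist, Snai and Zeb genes, of 9 tested members, 4 (44.4%) rose (Id1, Id3, Snai1; Snai2, adjusted p = 0.309 without WT 0h replicate 2) and 1 (11.1%) fell (Zeb1, adjusted p = 0.201 without WT 0h replicate 1). Id1 and Id3, inhibitors of bHLH factors that Bmp signals induce, rose: Id1 had 95.4 and 93.8 CPM at 24h, against 40.7 and 47.3 CPM at 0h, and Id3 had 167 and 126 CPM at 24h, against 61 and 56.9 CPM at 0h. Among Fox genes, of 17 tested members, 2 (11.8%) rose (Foxb1, Foxc1) and 3 (17.6%) fell (Foxd3; Foxa2, adjusted p = 0.0786 without WT 0h replicate 1; Foxo1, adjusted p = 0.239 without WT 0h replicate 1). Foxb1 had 36.9 and 40.2 CPM at 24h, against 4.28 and 3.42 CPM at 0h, and Foxc1 had 48.4 and 53.6 CPM at 24h, against 24.1 and 18.8 CPM at 0h. Foxd3, a factor of pluripotent cells, had 0.348 and 0 CPM at 24h, against 17.7 and 15.4 CPM at 0h, and its pooled CPM was 77.5 (exact 95% interval 13.4 to 3110) times higher at 0h.

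Among p53 target genes, of 11 tested members, 3 (27.3%) rose (Btg2, Cdkn1a, Phlda3) and 0 (0%) fell by edgeR, and 0 fell with DESeq2, with 3 higher and 0 lower at an unadjusted p below 0.05. Cdkn1a, the cell cycle inhibitor p21 at chr17:29090979-29100722, had 1593 and 1418 CPM at 24h, against 275 and 244 CPM at 0h, a log2 difference of 2.54 ± 0.10. Phlda3 had 51.9 and 42.7 CPM at 24h, against 22.5 and 19.4 CPM at 0h, and Btg2 had 75.5 and 77.8 CPM at 24h, against 40.1 and 34.7 CPM at 0h. These 3 were higher in both 24h libraries. Ccng1, another p53 target, had 296 and 274 CPM at 24h, against 278 and 272 CPM at 0h, and was not called. The part of cell stress in these rises was not tested; of 10 immediate early and heat shock genes tested, 1 rose (Ier3, adjusted p = 0.0851 with DESeq2) and 1 fell (Jun), Jun with 60.9 and 72.1 CPM at 24h, against 136 and 119 CPM at 0h.

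Markers of other cell types were tested in part. Of 8 definitive endoderm markers, 5 were tested, 1 rose (Gsc) and 3 fell (Trh; Foxa2, adjusted p = 0.0786 without WT 0h replicate 1; Sox17, adjusted p = 0.282 with DESeq2), with a sum of 106 and 99.5 CPM at 24h, against 73.9 and 69.5 CPM at 0h. That sum was carried at 24h by Gsc, a factor also of the anterior streak, with 76.2 and 72.1 CPM at 24h, against 10.7 and 9.68 CPM at 0h, while Sox17 had 10.8 and 11.5 CPM at 24h, against 19.3 and 25.1 CPM at 0h, and Hhex, Foxa1 and Cer1 were under the filter. The 5 tested visceral and primitive endoderm markers of 13 summed to 49.1 and 57.4 CPM at 24h, against 35.3 and 35.9 CPM at 0h, and 2 rose (Gata6; Gata4, adjusted p = 0.245 without WT 24h replicate 1) while 1 fell (Lrp2). The 2 tested trophoblast markers of 4 summed to 10.4 and 8.93 CPM at 24h, against 3.75 and 2.85 CPM at 0h, and 1 rose (Tfap2c, adjusted p = 0.0659 without WT 24h replicate 1). Of 10 blood and endothelium markers, 3 were tested, 2 rose and 1 fell (Fli1), with a sum of 139 and 117 CPM at 24h, against 19.8 and 26.2 CPM at 0h, and Kdr, Tal1, Pecam1 and Etv2 were under the filter. That sum was carried by Lmo2, with 94.7 and 85.5 CPM at 24h, against 2.68 and 3.99 CPM at 0h, and Runx1, with 43.9 and 31.3 CPM at 24h, against 10.2 and 15.4 CPM at 0h. Lmo2 and Runx1 were thus higher in both 24h libraries while those defining genes were under the filter.

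Most of the WT response was also seen in Null cells, which have their own 0h libraries. Of the 795 genes that rose in WT cells, 751 had a positive difference in Null cells and 499 were among the 891 genes called higher there, where 9.18% of tested genes were. Of the 837 that fell, 784 had a negative difference and 508 were among the 916 called lower there, where 9.44% of tested genes were. The test of the difference between the 2 responses called 55 genes (0.567% of 9703), 31 of them among the genes called in WT cells. Of the listed genes called in WT cells, 431 in the 5 classes, 14 were called in that test. It called 15 genes without WT 0h replicate 2, 19 without WT 0h replicate 1 and 16 with DESeq2. The 14 were adhesion, receptor, metabolic and transcription factor genes. Chromatin genes were absent from them, but only 14 chromatin genes rose and 28 fell in WT cells. At a share of 14 in 431, hardly any would be looked for in a class of that size, so the absence is not read as a trait of chromatin genes.

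**Figure D5:**
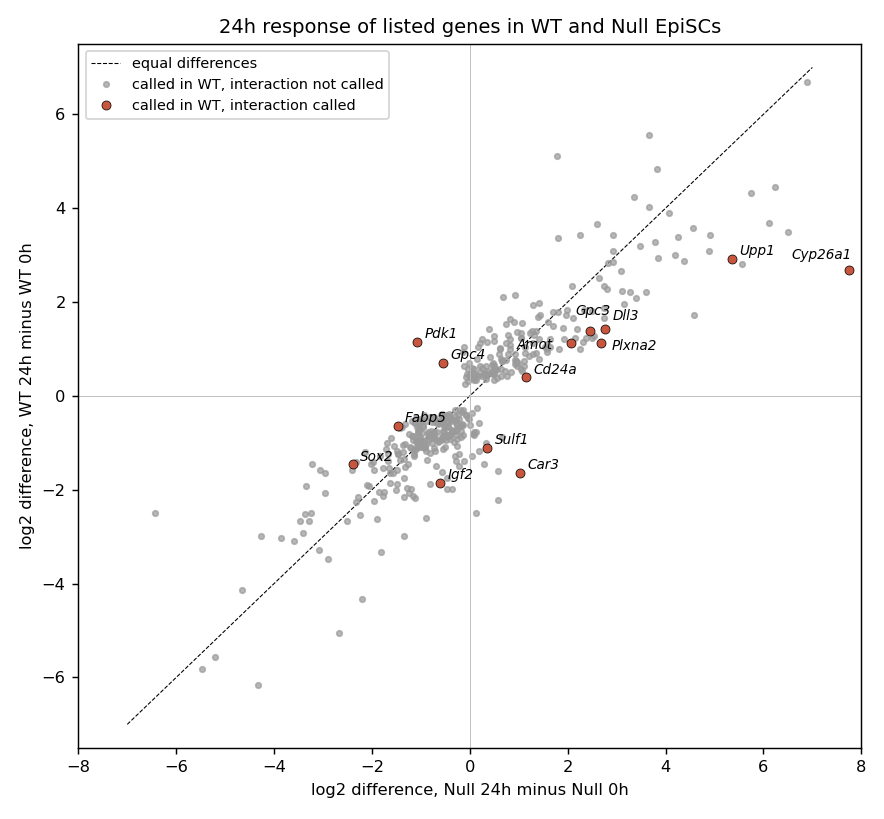
Log2 difference, 24h minus 0h, in WT EpiSCs (vertical) and Null EpiSCs (horizontal), of the 431 genes of the adhesion, receptor, metabolism, chromatin and transcription factor lists called in WT cells; the dashed line marks equal differences. Red points are the 14 genes whose responses differed by test, and 399 of the 431 have the same sign in both lines; values of genes with 3 or fewer counts in a group depend on the prior count.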

How the data were processed

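The deposited cell-line table held counts of reads per gene, not normalised, made by the authors from CEL-seq libraries of 10 ng total RNA, per the labels' protocols. Reads were mapped to mm10, per the submitters' processing notes; the aligner is not given in the sources used here, nor are molecular identifiers. Whole-number counts of the 8 EpiSC libraries (1114055 to 2914870 each) were fitted with edgeR 4.0.16 in R 4.3.3 (filterByExpr, TMM, glmQLFit with robust estimation, glmQLFTest), with 1 mean per group, 4 residual degrees of freedom and Benjamini-Hochberg adjustment over 9703 genes. All 4 groups shared 1 estimate of the spread. The common coefficient of variation was 0.081. Standard errors come from the F statistic. Genes without a count in one group have folds as bounds, from a floor of 3 summed counts. With 1 to 3 counts, ratios carry exact 95% intervals. These folds, called pooled CPM, and the floor in CPM use unscaled library totals, unlike the printed CPM of genes, which use TMM factors. The factors were 0.992 and 0.994 at 24h, against 1.05 and 1.04 at 0h, in the WT libraries. RLE scaling, no filter, DESeq2 1.42.0, the 4 WT libraries alone, a replicate block and leaving out each WT library were the 9 alternatives. The code was run on simulated counts with the same spread for all genes. The data differ from that setting, so the run does not test the calls made here. Members, gene lists and tests were chosen with earlier results of these data known. Named genes were the markers, the 10 largest rises and falls and up to 4 each way per list, at 20 CPM or more in the higher group with libraries that do not overlap, the 2 highest members of each list, and every called member where a count was 5 or fewer; some members counted in the lists are not reported here by name. Of 15807 symbols, 15760 matched RefSeq. The embryo table and the peak files were not used here.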

Additional observations from a re-analysis of the deposited data

Results flagged for a closer look

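The 24h responses of WT and Null cells differed, by the test of the difference in one edgeR model, in 16 of the genes named in the text. Each value is the WT response minus the Null response on the log2 scale, and WT values not given here stand in the report. An adjusted p given here is the highest over the 8 alternatives run on this test. In 10 of the 16 genes, Cyp26a1 among them, both lines rose and the WT rise was smaller. T differed by -2.22 ± 0.28, with Null values of 504 and 617 CPM at 24h, against 15.2 and 10.8 CPM at 0h, in all 8 alternatives. Mixl1 differed by -1.88 ± 0.42, with 493 and 452 CPM at 24h, against 5.69 and 5.42 CPM at 0h in Null cells and an adjusted p of 0.181 without WT 0h replicate 2. Upp1 differed by -2.44 ± 0.43, with 218 and 216 CPM at 24h, against 5.69 and 4.52 CPM at 0h in Null cells, in all 8 alternatives. Gata6, an endoderm and cardiac factor, had 32.7 and 35.1 CPM at 24h, against 8.03 and 12.5 CPM at 0h in WT cells and 74.8 and 58.2 CPM at 24h, against 4.42 and 3.61 CPM at 0h in Null cells, a difference of -2.30 ± 0.50 with an adjusted p of 0.232 without WT 0h replicate 2. Amot differed by -0.95 ± 0.21 (adjusted p = 0.0985 with DESeq2), with 225 and 206 CPM at 24h, against 48 and 56 CPM at 0h in Null cells. Gpc3 differed by -1.07 ± 0.25 (adjusted p = 0.298 without WT 0h replicate 2), with 283 and 240.0 CPM at 24h, against 39.8 and 58.7 CPM at 0h in Null cells. Plxna2 differed by -1.55 ± 0.37 (adjusted p = 0.33 with DESeq2), with 59 and 55.5 CPM at 24h, against 8.85 and 9.04 CPM at 0h in Null cells. Dll3 differed by -1.34 ± 0.32 (adjusted p = 0.343 without WT 0h replicate 1), with 158 and 124 CPM at 24h, against 24 and 16.3 CPM at 0h in Null cells. Gsc differed by -2.09 ± 0.46 (adjusted p = 0.149 without WT 0h replicate 1), with 115 and 119 CPM at 24h, against 4.42 and 2.71 CPM at 0h in Null cells. In the 9 genes given so far the Null 0h libraries were below the WT 0h libraries, apart from an overlap in Gpc3.

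Cyp26a1 rose in both lines, with 94.2 and 96.3 CPM at 24h, against 0.632 and 0 CPM at 0h in Null cells, and its fitted difference of -5.07 ± 0.81 depends on the prior count, since the Null 0h libraries held 1 count in all; its adjusted p was 0.0802 with DESeq2. Cdh2, not called in WT cells, was called higher in Null cells, with 68.4 and 76.2 CPM at 24h, against 19 and 25.3 CPM at 0h, a difference of -1.38 ± 0.29 (adjusted p = 0.127 with DESeq2). Sulf1 fell in WT cells and was not called in Null cells, with 42.6 and 40.8 CPM at 24h, against 34.8 and 29.8 CPM at 0h, a difference of -1.47 ± 0.29 (adjusted p = 0.0985 with DESeq2). Car3, a carbonic anhydrase, fell in WT cells, with 2.78 and 2.55 CPM at 24h, against 8.56 and 8.54 CPM at 0h, and was not called in Null cells, with 19.8 and 13.4 CPM at 24h, against 6.95 and 9.94 CPM at 0h, a difference of -2.67 ± 0.62 (adjusted p = 0.126 without WT 0h replicate 1). Igf2 fell in both lines and further in WT cells, with 116 and 155 CPM at 24h, against 195 and 215 CPM at 0h in Null cells, a difference of -1.24 ± 0.19 in all 8 alternatives. Sox2 fell less in WT cells, with 84.3 and 90.9 CPM at 24h, against 536 and 369.6 CPM at 0h in Null cells, a difference of 0.93 ± 0.20 (adjusted p = 0.0821 without WT 0h replicate 2). Fabp5 also fell less in WT cells, with 260.2 and 273 CPM at 24h, against 721 and 757 CPM at 0h in Null cells, a difference of 0.83 ± 0.15 in all 8 alternatives. Without WT 0h replicate 1 the test called 19 genes over the whole table, and without WT 0h replicate 2 it called 15, against 55 with all libraries.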

How the results depend on the processing

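Depth limits genes near the floor of 1.03 to 1.89 CPM, 2 libraries a group limit the precision, and the exact intervals and the floor take in counting error alone. The 795 rises became 825 with RLE scaling, 906 without the filter on low counts and 785 with the 4 WT libraries alone, and the 837 falls 815, 852 and 796. With DESeq2, 458 rose and 386 fell, and 224 fell by a log2 of 1 or more, against 396. With 1 WT library left out, 520 to 796 rose and 475 to 754 fell (lowest without WT 0h replicate 2 and without WT 24h replicate 1), while 304 to 395 rose and 277 to 395 fell by a log2 of 1 or more. A group reduced to 1 library was assumed to vary like the other groups. The test of the WT against the Null response called 55 genes, 93 without the filter on low counts, 16 with DESeq2, 15 to 82 with 1 WT library left out and 123 with the replicate block. The replicate number as a block gave 944 rises and 995 falls, against 795 and 837 without it. Same-numbered WT libraries deviated together only weakly (r = 0.0884). The labels do not say what the replicate number stands for, and whether same-numbered libraries share a batch was not tested. Of the 2601 values of named genes under an alternative, 309 kept their direction and lost the call, 75 of them with DESeq2 and 74 without WT 24h replicate 1. The sign turned in 2 genes that were not called, Ezh2 and Srebf2: with 1 WT library left out, Ezh2 ranged from -0.0705 (without WT 24h replicate 2) to 0.311, and Srebf2 from -0.261 (without WT 24h replicate 1) to 0.535. Of 1224 list counts under an alternative, 961 stayed within 1.5 times. The cause of these shifts was not tested.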

Other observations

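Among the largest changes were genes outside the 5 classes. Sostdc1, a secreted antagonist of Bmp and Wnt signals, had 218 and 153 CPM at 24h, against 2.14 and 4.55 CPM at 0h, a log2 difference of 5.80 ± 0.29. Wnt6, a Wnt ligand, had 55 and 48.5 CPM at 24h, against 1.07 and 0.569 CPM at 0h, and its pooled CPM was 60.4 (exact 95% interval 20.4 to 295) times higher at 24h. Notum, a secreted enzyme that inactivates Wnt ligands, had 20.5 and 25.5 CPM at 24h, against 0 and 1.14 CPM at 0h, and its pooled CPM was 38.3 (exact 95% interval 10.3 to 321) times higher at 24h. These were higher in both 24h libraries. Shisa3, of a family that retains Wnt and Fgf receptors in the endoplasmic reticulum, had 1.39 and 0.638 CPM at 24h, against 19.3 and 24.5 CPM at 0h, a log2 difference of -4.20 ± 0.47. Ell2, a transcription elongation factor, had 15.3 and 12.1 CPM at 24h, against 191 and 157 CPM at 0h, a log2 difference of -3.62 ± 0.19. Trap1a, an X-linked gene known as a tumour rejection antigen, had 5.22 and 3.83 CPM at 24h, against 123 and 126 CPM at 0h, a log2 difference of -4.70 ± 0.25. The last 3 were lower in both 24h libraries.

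Sphingolipid and phospholipid genes moved in both directions: of 44 tested members, 5 (11.4%) rose (Pla2g7, Pld3, Sgpl1; Ppap2c, adjusted p = 0.0865 with DESeq2; Sptlc1, adjusted p = 0.16 without WT 24h replicate 2) and 5 (11.4%) fell (Cers4, Enpp3; Dgkk, adjusted p = 0.384 without WT 24h replicate 1; Dgkz, adjusted p = 0.225 without WT 0h replicate 1; Pcyt1b, adjusted p = 0.102 without WT 0h replicate 1). Both shares lay near the background, since 8.19% rose and 8.63% fell over all tested genes. Sgpl1, the lyase that ends sphingosine phosphate signalling, had 175 and 157 CPM at 24h, against 103 and 94.5 CPM at 0h, and Cers4, a ceramide synthase, had 19.1 and 21 CPM at 24h, against 42.8 and 38.1 CPM at 0h. Sgpl1 was higher and Cers4 lower in both 24h libraries. Glycosyltransferases had 5 rises and 5 falls among 50 tested, and 0 of the 10 were called in all 9 alternatives. In the Klf and Sp list, of 15 tested members, 3 (20%) rose (Sp5; Klf13, adjusted p = 0.0519 without WT 0h replicate 1; Klf5, adjusted p = 0.475 without WT 24h replicate 1) and 1 (6.67%) fell (Klf10, adjusted p = 0.0588 without WT 24h replicate 1). Sp5, a direct Wnt target, had 444 and 257 CPM at 24h, against 16.6 and 15.9 CPM at 0h, a log2 difference of 4.44 ± 0.27.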
